A study of Arabidopsis thaliana with 3 samples.

Results

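Transfer RNA genes carried 353 of the 10812 peaks that both immunoprecipitates of the chromatin protein DEK2 had in common in Arabidopsis thaliana seedlings (3.26%). A peak of replicate 1 counted as shared when it overlapped a peak of replicate 2 by at least 50% of the shorter, and as lying at a tRNA gene when its replicate 1 summit, the position of highest enrichment, fell inside or within 200 bp of a nuclear gene classed as tRNA. These peaks reached 358 of the 625 nuclear tRNA genes (57.3%, 95% Wilson interval 53.4 to 61.1), against 22.8% of all 37899 nuclear genes by the same rule. All 358 genes stood alone or in pairs along the chromosomes. None of the 136 tRNA genes in runs of 3 or more neighbours, among them the 107 genes of the tandem arrays on chromosome 1, had a shared summit.

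DEK proteins bind DNA and chromatin, and the title of the series describes AtDEK2 as a reader of histone marks with a role in immunity. Both immunoprecipitates came from 14-day-old seedlings of the dek2-1 mutant carrying a DEK2-YFP fusion driven by the DEK2 promoter (pDEK2::DEK2-YFP), grown on plates without a stated treatment, and were made with an anti-GFP antibody, which binds YFP as well. An input sample of the same plants had no values used here, and no immunoprecipitate of untagged plants was analysed here, so each peak is a place enriched over the background modelled by the peak caller. The labels number the replicates 1 and 2 without saying whether the plants were grown apart, so differences between them may be technical.

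tRNA genes are short and are transcribed by RNA polymerase III. Their promoter lies inside the transcribed sequence, where the factor TFIIIC binds and brings in TFIIIB, which in turn recruits the polymerase. In Arabidopsis most tRNA genes are scattered between protein-coding genes, while a proline cluster and a cluster of repeated serine and tyrosine genes lie on chromosome 1. Genes in such clusters are known to be silent in most tissues, whereas many scattered genes are active.

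Replicate 1 had 25742 peaks and replicate 2 had 13307, with median fold enrichments of 1.82 and 2.02, which are the authors' own values for each peak. Read depth is unknown, and intervals on shares cover counting error only. Peaks and genes are not replicates of a condition, and with 1 group of 2 lists no test between conditions could be made. The values below are therefore described without p-values.

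Compared with other classes of gene, tRNA genes were often marked. The share of genes with a shared summit inside or within 200 bp was 27.4% for 27444 protein-coding genes, whose median length of 2078 bp gives each far more room than the 73 bp of a tRNA gene. It was 22.0% for 82 snRNA genes (Wilson interval 14.4 to 32.1), which encode RNAs of the spliceosome. It was 8.01% for 287 snoRNA genes (5.40 to 11.7), which guide RNA modification and are about as short as tRNA genes, and 4.91% for 326 miRNA genes (3.04 to 7.82). In windows of the same width as a tRNA gene with its flanks, centred on the ends of protein-coding genes, a shared summit was found in 14.1% of 54888 windows. Shared summits had a density of 12.2 per 10 kb in the 288418 bp of tRNA genes and flanks, and of 0.908 per 10 kb along the chromosomes as a whole.

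Summits clustered closely around the tRNA gene in both replicates. Over the 489 dispersed tRNA genes, those in no run of 3 or more, 274 summits of replicate 1 and 323 of replicate 2 fell within 100 bp of the gene midpoint. Per 100 bp and 100 genes this is 28.0 and 33.0 summits, against 1.70 and 1.25 at 500 to 1000 bp from the midpoint. The members chosen by the 200 bp rule were thus well set off from their surroundings. Summits over 150 and up to 200 bp from a tRNA gene numbered 20 (median fold 2.13 in both replicates), and 2 lay over 200 and up to 250 bp away (median folds of 2.52 and 2.18).

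The replicates differed in where the summit sat. The replicate 2 summit is tied to the rule through the overlap of the peaks. It lay inside the same tRNA gene in 145 of 353 peaks (41.1%) and inside or within 50 bp of it in 285 (80.7%). The replicate 1 summit lay inside the gene in 59 (16.7%) and inside or within 50 bp in 206 (58.4%). The median distance to the gene was 38 bp in replicate 1 and 6 bp in replicate 2. Counted in steps of 50 bp over the dispersed genes, replicate 1 had 71 summits 50 to 100 bp below the midpoint and 84 at 50 to 100 bp above it, with 54 and 65 in the steps between them. Replicate 2 had 113 in each of the central steps, with 45 and 52 beside them. Replicate 1 peaks covered the whole tRNA gene in 349 of 353 cases and replicate 2 peaks in 312. Strand was not used, so the sides of a gene are those of lower and higher coordinate.

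**Figure D1:**
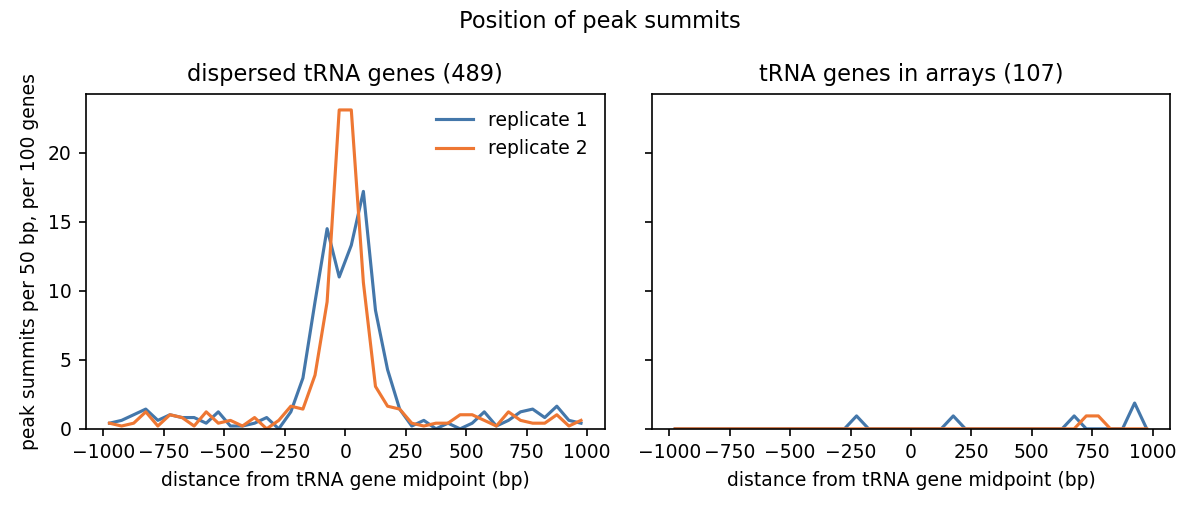
Peak summits of either list per 50 bp and per 100 tRNA genes (vertical axis) by distance from the gene midpoint in bp (horizontal axis), for 489 dispersed genes (left) and 107 genes in arrays (right). At dispersed genes replicate 2 has its maximum over the gene and replicate 1 has a maximum on each side of it, while arrays have no summit within 100 bp of a midpoint in either replicate.

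All 20 amino acids were represented. Among dispersed genes, every amino acid had a shared summit at 50% or more of its genes. The highest shares were those of histidine (9 of 10 genes, 90.0%), threonine (21 of 24, 87.5%), phenylalanine (14 of 16, 87.5%), glycine (35 of 41, 85.4%) and alanine (28 of 33, 84.8%). The lowest were those of methionine (12 of 24, 50.0%, Wilson interval 31.4 to 68.6), glutamine (10 of 17, 58.8%, 36.0 to 78.4) and valine (19 of 30, 63.3%, 45.5 to 78.1). Most intervals overlap, since the dispersed genes of an amino acid number between 10 and 41. Methionine genes had a replicate 1 summit at 18 of 24 genes and a replicate 2 summit at 12, so the share depends on the replicate. The gene table names amino acids and not anticodons, so isoacceptors, and initiator and elongator methionine genes, were not told apart.

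Proline, serine and tyrosine genes stood low only when grouped genes were counted with the rest. Over all genes, 18 of 66 proline genes (27.3%), 23 of 64 serine genes (35.9%) and 13 of 75 tyrosine genes (17.3%) had a shared summit. Among dispersed genes the counts were 18 of 24 (75.0%), 23 of 35 (65.7%) and 13 of 18 (72.2%), within the range of the other amino acids.

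**Figure D2:**
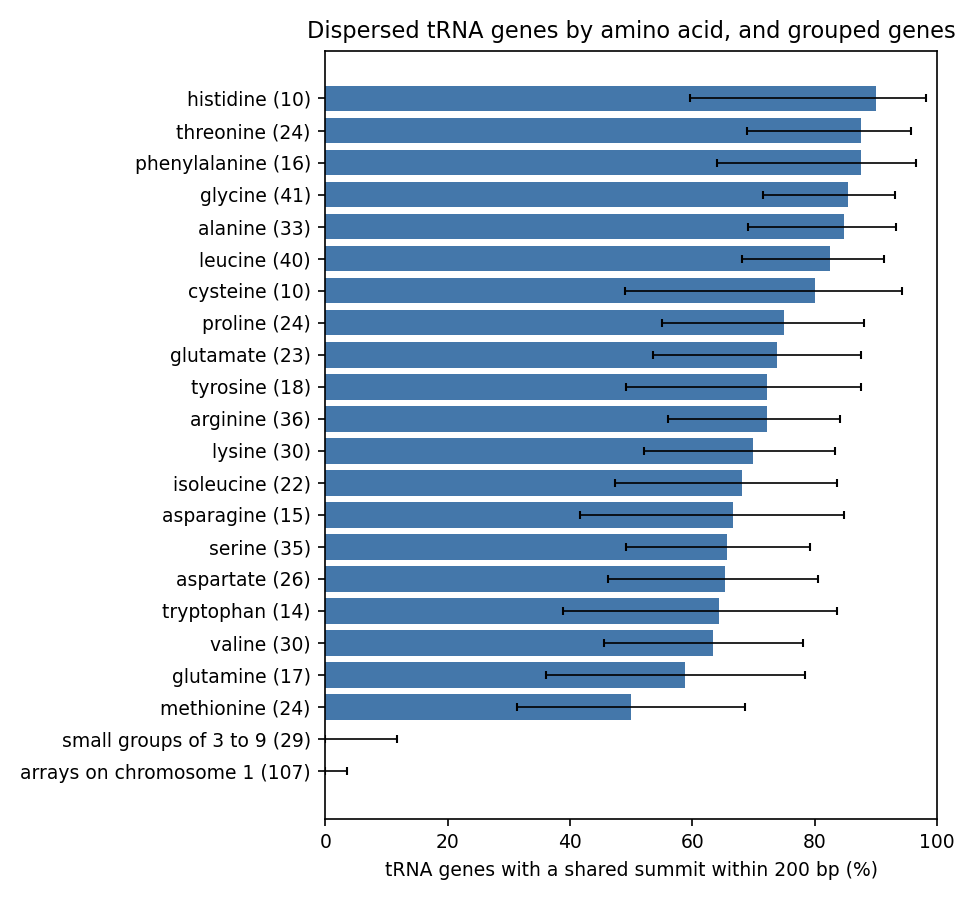
Share of tRNA genes with a shared summit inside or within 200 bp (horizontal axis, percent) for dispersed genes by amino acid and for grouped genes, with the number of genes in brackets and 95% Wilson intervals. Dispersed genes range from 50.0% for methionine to 90.0% for histidine, and both kinds of grouped genes are at 0.

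Arrays on chromosome 1 stood apart from dispersed genes in both lists. An array was taken as at least 10 tRNA genes on chromosome 1 with gaps of at most 5 kb, which picked out 26 proline genes over 19.3 kb and 81 genes over 39.7 kb, 54 for tyrosine and 27 for serine. No shared summit lay within 200 bp of any of these 107 genes (0 of 107, which allows a share of up to 2.80% by the limit of 3 counts), whereas 358 of 489 dispersed genes had one (73.2%, 69.1 to 76.9). On chromosome 1 itself, 92 of 125 dispersed genes had one (73.6%, 65.3 to 80.5).

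The tyrosine and serine array held no peak of either list at all. The nearest peak of replicate 1 lay 1.10 kb and that of replicate 2 lay 1.27 kb outside it, and the array and 50 kb on each side held 18 and 15 peaks. No protein-coding gene overlaps this array. The proline array, whose span 4 protein-coding genes overlap, held 3 peaks of replicate 1 and 2 of replicate 2. The replicate 1 peak from 10090183 to 10090782 had its summit 153 bp from a tRNA gene and a fold of 1.95, without a match in replicate 2. Another, from 10094667 to 10095852, was shared and had a fold of 1.32 against 2.94 in replicate 2. The third, from 10102604 to 10103095, was shared with 1.33 against 3.53. The summits of these shared peaks lay 881 and 902 bp from the nearest tRNA gene in replicate 1 and 688 and 717 bp in replicate 2, beyond the 200 bp limit.

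**Figure D3:**
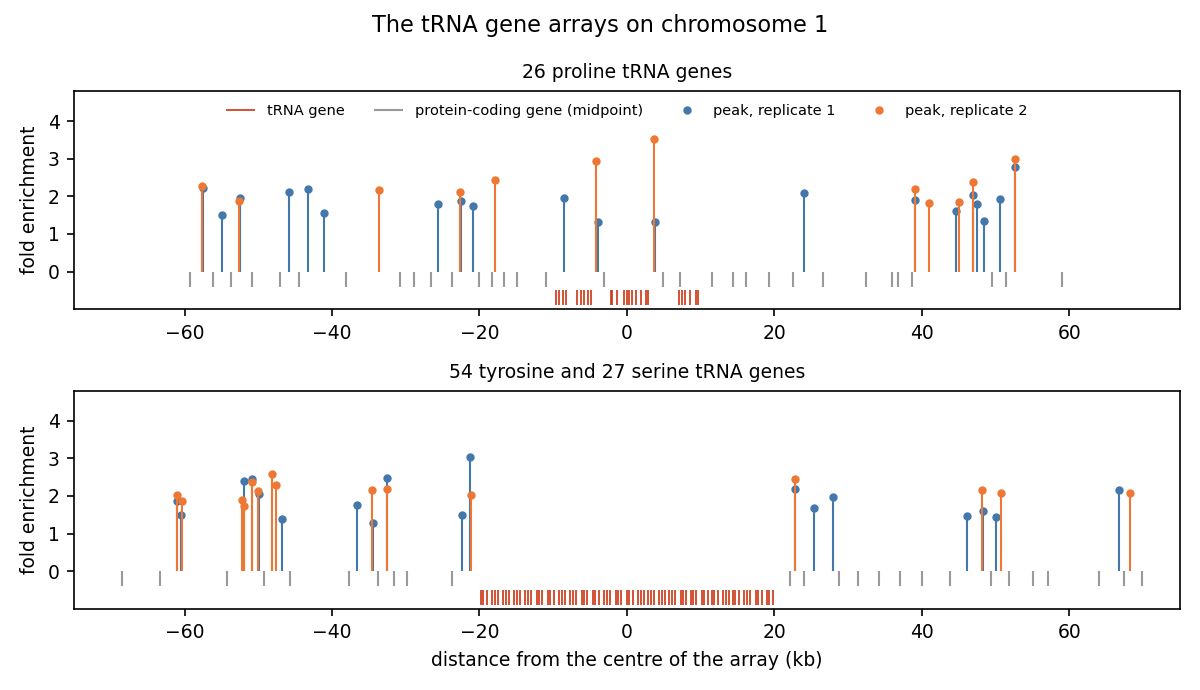
Fold enrichment of the peaks of both replicates (vertical axis, dots) by distance in kb from the centre of the proline array (top) and of the tyrosine and serine array (bottom), with tRNA genes and the midpoints of protein-coding genes as ticks below 0. Peaks are frequent on both sides of the tyrosine and serine array and absent over its 81 genes, and the proline array holds 5 peaks of the replicates together.

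Smaller runs were also without shared summits. The 29 genes in 5 runs of 3 to 9 had none (0%, 0 to 11.7). The runs were 6 proline genes on chromosome 1, 4 cysteine genes on chromosome 5, and 3 runs on chromosome 2 with 9 proline genes, 7 genes of mixed kind and 3 genes. Within the run of 9 proline genes on chromosome 2, replicate 1 had 4 peaks, with folds of 1.47, 2.08, 1.64 and 1.67. Their summits lay 36, 91, 177 and 12 bp from a tRNA gene. Replicate 2 had no peak within 5.59 kb of this run. The runs of 7 and of 3 genes lay 646 and 460 kb from the nearest shared peak of any kind. The nearest replicate 1 peak was 175 and 319 kb away, and no peak of either list lay within 50 kb. Around these runs were a median of 27 and 37 protein-coding genes per 100 kb, so the lack of peaks there was not particular to tRNA genes. Pairs of tRNA genes within 5 kb of each other did not lack shared summits, with 48 of 64 genes marked (75.0%, 63.2 to 84.0). This was close to 310 of 425 single genes (72.9%, 68.5 to 76.9). Of the 32 pairs, 18 had a shared summit at both genes, 12 at 1 gene and 2 at neither, and 5 peaks lay near 2 tRNA genes.

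Genes of an array resemble each other in sequence, and the sources used here do not say how reads with several matches were treated. The part of this in the lack of peaks was not tested, so a lack of peaks over arrays cannot be read as absence of the protein. The same holds for the smaller runs and for near-identical copies among dispersed genes.

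The share of dispersed genes with a shared summit was similar at all distances from protein-coding genes between 1 and 1000 bp. It was 77.4% at 1 to 200 bp (243 of 314 genes, 72.4 to 81.7), 76.1% at over 200 and up to 500 bp (54 of 71, 65.0 to 84.5) and 78.8% at over 500 and up to 1000 bp (26 of 33, 62.2 to 89.3). It was lower for genes over 1000 bp away (13 of 29, 44.8%, 28.4 to 62.5) and for genes that overlap a protein-coding gene (22 of 42, 52.4%, 37.7 to 66.6). Of the array genes 95 lay over 1000 bp from any protein-coding gene and none had a shared summit (0 to 3.89). The array genes of this class lay farther out than the 29 dispersed ones, at a median of 9883 bp against 1676 bp, with a median of 16.0 against 26 protein-coding genes per 100 kb, and the part of this in the difference was not tested. Over all distances, the median number of protein-coding genes per 100 kb around the tRNA gene was 28.0 at dispersed genes with a shared summit, 29.0 at those without, 16.0 in the tyrosine and serine array and 26 in the proline array. The 41 snoRNA genes over 1000 bp from a protein-coding gene also had none (0 to 8.57), and snoRNA genes reached 33.3% (8 of 24) at 1 to 200 bp. In the class over 1000 bp, 3 of 11 snRNA genes (27.3%, 9.75 to 56.6) and 6 of 121 miRNA genes (4.96%, 2.29 to 10.4) had a shared summit.

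**Figure D4:**
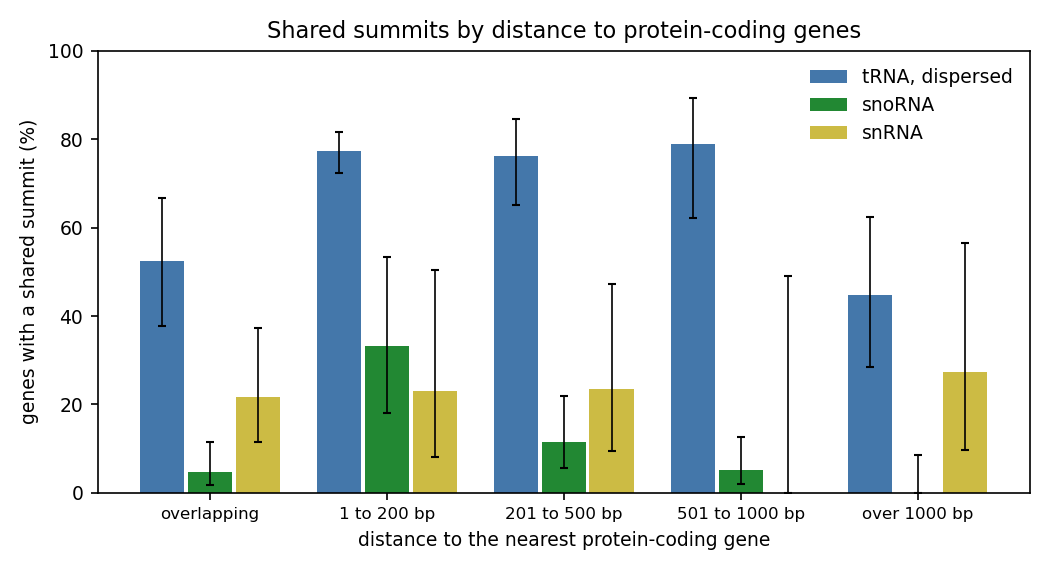
Share of genes with a shared summit inside or within 200 bp (vertical axis, percent, 95% Wilson intervals) by distance to the nearest protein-coding gene (horizontal axis) for dispersed tRNA genes, snoRNA genes and snRNA genes. Dispersed tRNA genes stay between 76.1% and 78.8% from 1 to 1000 bp and are lower in both outer classes.

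Because shared peaks as a whole gather at the ends of protein-coding genes, the summit was set against both neighbours. The rule holds the replicate 1 summit within 200 bp of the tRNA gene, so its nearness is no finding; it was nearer to the tRNA gene than to any protein-coding gene end in 264 of 353 peaks and nearer to the gene end in 88. The rule ties the replicate 2 summit to the tRNA gene through peak overlap, and the replicates' summits lay a median of 62 bp apart. Its nearness is thus partly set as well. The replicate 2 summit was nearer to the tRNA gene in 305 of 353 (86.4%). For tRNA genes 1 to 200 bp from a protein-coding gene, where the gene end is also close, this held in 205 of 241 peaks (85.1%) in replicate 2 and in 164 of 241 (68.0%) in replicate 1. Among the 90 peaks whose tRNA gene lay over 200 bp from a protein-coding gene, the replicate 1 summit was displaced toward that gene in 44, away from it in 34 and inside the tRNA gene in 12. The replicate 2 summit was toward it in 30, away in 24 and inside the tRNA gene in 36. Ends of protein-coding genes with a tRNA gene within 500 bp outside them had a shared summit within 236 bp in 327 of 579 cases (56.5%, 52.4 to 60.5), and the other ends in 7437 of 54309 (13.7%, 13.4 to 14.0).

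The rule holds the replicate 1 summit near a tRNA gene, so its distance to protein-coding genes depends on where tRNA genes lie. Of the 489 dispersed tRNA genes, 42 overlap a protein-coding gene and 314 lie 1 to 200 bp from one. The contrasts below are therefore no finding about the peaks. Summits at tRNA genes lay less often inside protein-coding genes than shared summits as a whole (62 of 353, 17.6%, against 41.3% of 10812). They lay more often outside but within 500 bp (71.1% against 36.4%), and 40 of 353 (11.3%) lay over 500 bp from any protein-coding gene, against 22.3%. The 40 had median folds of 2.14 in replicate 1 and 2.27 in replicate 2, and the 313 closer to protein-coding genes had 2.00 and 2.21.

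Enrichment at tRNA genes was of the same order as elsewhere in replicate 1 and higher in replicate 2. In replicate 1 the folds ran from 1.26 to 3.35 with a median of 2.00, against 2.08 in the other 10459 shared peaks. In replicate 2 they ran from 1.42 to 4.19 with a median of 2.23, against 2.03. The difference from other shared peaks thus had opposite signs in the replicates. The fold was higher in replicate 2 than in replicate 1 in 255 of 353 peaks at tRNA genes (72.2%) and in 46.5% of all shared peaks. The median −log10 q, the peak caller's adjusted significance, was 12.9 against 12.7 in replicate 1 and 6.51 against 3.97 in replicate 2, and both were at least 5 in 62.6% of the peaks at tRNA genes and 31.3% of all shared peaks. When shared peaks were ranked by the worse of their ranks of fold in the replicates, tRNA genes held 8 of the best 100 and 32 of the best 500 (6.40%), against 3.26% of all.

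**Figure D5:**
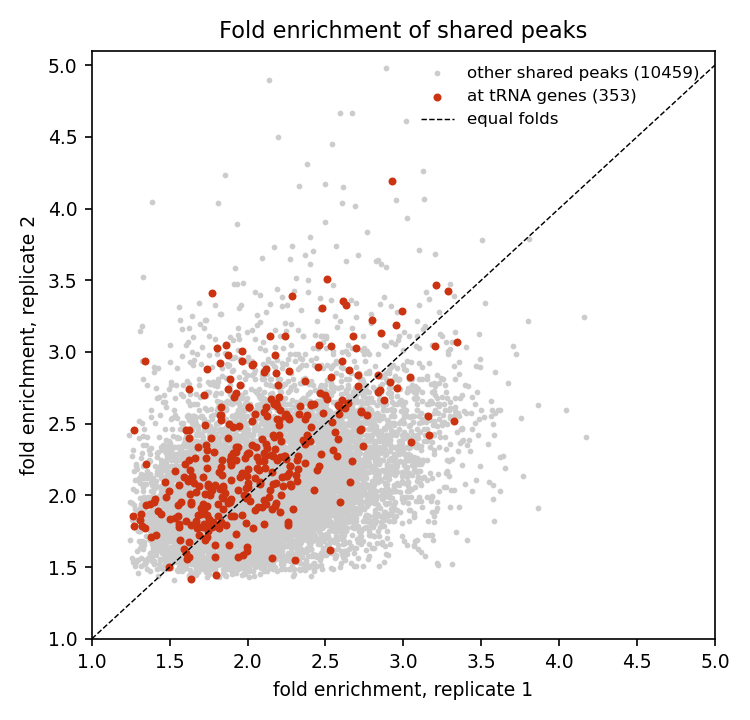
Fold enrichment in replicate 1 (horizontal axis) and of the matching peak in replicate 2 (vertical axis) for 353 shared peaks at tRNA genes and 10459 other shared peaks, with a dashed line at equal folds. Of the peaks at tRNA genes 255 lie above the line, and none exceeds 3.35 in replicate 1.

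The best ranked peak lay at the glycine gene AT5G11225, on chromosome 5 from 3578080 to 3578881, with a fold of 3.29 in replicate 1 and 3.43 in replicate 2. Its summits were 47 and 50 bp from the tRNA gene, and the nearest protein-coding gene, AT5G11220, was 317 bp away. Next came the alanine gene AT2G02600, on chromosome 2 from 706539 to 707159 (3.21 and 3.47), with the replicate 2 summit inside the gene. The leucine gene AT1G11550, on chromosome 1 from 3881236 to 3881810, had the highest replicate 1 fold at any tRNA gene, 3.35, with 3.07 in replicate 2. The glutamate gene AT1G20170, on chromosome 1 from 6994865 to 6995532 (3.20 and 3.04), was 823 bp from the nearest protein-coding gene. High enrichment was therefore found both beside and away from protein-coding genes.

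At the threonine gene AT5G44705, on chromosome 5 from 18040669 to 18041336, the replicate 2 fold of 4.19 was the highest at any tRNA gene, with 2.93 in replicate 1. The replicate 1 summit lay 80 bp from that gene and inside the protein-coding gene AT5G44710, while the replicate 2 summit lay inside the tRNA gene. The other peaks among the best 12 were at 3 alanine genes, AT4G11355 (3.04 and 2.83), AT5G43455 (2.91 and 2.79) and AT5G39895 (2.87 and 2.66), and at AT1G63510 for cysteine (2.99 and 3.29), AT3G48515 for tyrosine (2.95 and 3.19), AT1G05390 for asparagine (2.96 and 2.75) and AT1G13720 for threonine (2.86 and 3.14). The cysteine gene lies 270 bp from BSK7, a gene of the brassinosteroid signalling kinase family. The tyrosine gene lies 177 bp from CYP94B3, whose product oxidises jasmonoyl-isoleucine. Alanine thus had 4 of the 12 peaks and 27 of all 353. Its median folds were 1.89 in replicate 1 and 2.27 in replicate 2, against 2.00 and 2.23 over all 353.

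The best peaks of the other amino acids were at AT4G39345 for histidine (2.84 and 2.72), AT3G02315 for isoleucine (2.84 in both), AT4G32765 for serine (2.80 and 3.22), AT1G22320 for methionine (3.16 and 2.55) and AT5G61345 for lysine (3.33 and 2.52). Those at AT1G08950 for proline (2.63 and 2.61), AT5G38155 for valine (2.61 and 3.36), AT5G50805 for glutamine (2.61 and 2.94), AT5G54365 for phenylalanine (2.53 and 2.82), AT5G10235 for arginine (2.51 and 2.68) and AT5G14495 for aspartate (2.50 and 2.70) came lower. The serine gene lies 154 bp from VTE1, which encodes tocopherol cyclase. The best peak for tryptophan, at AT4G17612, had 1.96 and 2.16. Tryptophan had the lowest median folds of all amino acids, 1.64 and 1.92 over 9 peaks, and the medians of the others ran from 1.82 to 2.25 in replicate 1 and from 2.02 to 2.54 in replicate 2.

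Away from protein-coding genes, 13 peaks lay at tRNA genes over 1000 bp from any of them, with folds of 1.34 to 2.77 in replicate 1 and 1.80 to 2.91 in replicate 2. The best was at the tyrosine gene AT1G49460, on chromosome 1 from 18308731 to 18309296 (2.77 and 2.56), with the replicate 1 summit inside the tRNA gene and 1380 bp from a protein-coding gene. The leucine gene AT5G46325, on chromosome 5 from 18790190 to 18791980 (2.73 and 2.59), has as its nearest protein-coding gene FLS2, which encodes the flagellin receptor, at 1188 bp. The summits lay 8 bp from the tRNA gene in replicate 1 and inside it in replicate 2. The remaining peaks among the best 5 were at AT4G39195 for tyrosine (2.73 and 2.47), AT5G65305 for methionine (2.72 and 2.45) and AT3G52285 for proline (2.37 and 2.53).

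The 131 dispersed genes without a shared summit were not all without peaks. A summit of replicate 1 alone was within 200 bp of 51, of replicate 2 alone of 27, and summits of both lists that did not count as shared lay at 1, which leaves 52 with none. In all, 437 of 489 dispersed genes (89.4%) had a summit in at least 1 list, against 6 of the 136 genes in runs of 3 or more (4.41%). By chromosome the share of dispersed genes with a shared summit ran from 64.5% on chromosome 2 (49 of 76, 53.3 to 74.3) to 82.4% on chromosome 5 (98 of 119, 74.5 to 88.2).

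Genes for proteins that load, process or export tRNA, and for RNA polymerase III and its factors, were looked at with a wider window of 500 bp. Within that window 34.2% of all protein-coding genes had a shared summit. Aminoacyl-tRNA synthetases are enzymes that load tRNAs with amino acids. Their genes were found by a wording of the name or description, so synthetase genes worded otherwise are not counted. Of the 9 found, 6 had a shared summit (66.7%, 35.4 to 87.9). Among them were ATKRS-1 for lysine (2.77 and 3.00) and OVA6 for proline (3.03 and 2.07), and the genes for seryl, valyl and alanyl enzymes (SRS, TWN2 and ALATS) had none. Of 9 genes of tRNA end processing and export 5 had one (55.6%, 26.7 to 81.1). These were PRORP1, an RNase P protein gene (2.61 and 2.21), TRZ1 (2.28 and 3.19) and TRZ3 (1.73 and 2.26), which encode RNase Z enzymes, La1, whose product binds the ends of new RNA polymerase III transcripts (2.57 and 2.94), and the export receptor gene PSD (2.11 and 1.96). The TRZ3 peak is also the shared peak of the asparagine tRNA gene AT1G52170, 81 bp from TRZ3. Of 5 genes of RNA polymerase III and its factors, the TATA-binding protein gene TBP2 had one (2.07 and 2.12), and TBP1, TFIIIA and the large subunit genes NRPC1 and NRPC2 had none.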

How the data were processed

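The authors called peaks on each immunoprecipitate separately and deposited 1 narrowPeak list per replicate. Trimmomatic 0.38, Bowtie2 2.3.5, SAMtools 1.9, MACS2 2.2.7.1 and the TAIR10 build are listed, without roles or settings, per the submitters' processing notes. The control, the treatment of reads with several matches and the read depth are not given in the sources used here. Fold enrichment, as deposited, is the ratio of a peak's pileup to its modelled background. Deposited p-values and q-values are on a −log10 scale, with no −log10 q under 1.30. The score deposited is a whole number made from q and was not used further. Peak coordinates are TAIR10, counted from 1.

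Gene classes, names and spans came from a RefSeq table of the assembly TAIR10.1, without strand or sequence, and none of its coordinates is printed. As a check of register, the share of shared summits inside gene spans was lowest (44.8%) at no displacement and 48.2% and 48.6% when moved by 200 bp to either side. Amino acids were read from the table's synonyms, and 2 of the 625 tRNA genes have none. Where several replicate 2 peaks matched, the one with the largest overlap as a share of the shorter peak was taken. Ties went to the larger overlap in bp. A tRNA gene was given to each peak as the nearest. Peaks were named by rule: the best 12, the best of each amino acid, any within 200 bp of an array gene (none) and the best 5 over 1000 bp from a protein-coding gene, plus others chosen after their values were seen. Pathway genes were matched by name or description, and 8 of 13 entries for RNA polymerase III did not match. MAF1 was left out because the name belongs to another gene in the table. TBP1 and TBP2 were taken by locus for the same reason. The members and lists were chosen with earlier results of these data known. Python 3.11.15 with pandas 2.3.3 and SciPy 1.17.1 was used, and the code was tested on simulated data.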

Additional observations from a re-analysis of the deposited data

How the results depend on the processing

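Of 98 values recomputed under other settings, 66 stayed close to the reported ones and 32 did not. Close meant within 1.5 times (numbers), within the interval of the reported share, or within the spread of the replicate medians. All 32 came from a stricter rule or from 1 replicate taken alone, and the causes were not tested. When the overlap had to reach 50% of each of the matched peaks, there were 228 peaks, and shares fell to 37.1% of all tRNA genes, 47.4% of dispersed genes and 50.3%, 47.9%, 51.5% and 24.1% in the distance classes from 1 to 200 bp to over 1000 bp. When both lists were first limited to peaks of −log10 q 5 or more, there were 223 peaks, 36.5% of all and 46.6% of dispersed genes, 28.6%, 48.7%, 54.9% and 45.5% in the classes from overlapping to the one ending at 1000 bp, median folds of 2.18 and 2.47, and 7 amino acids with 50% or more of all their genes marked in place of 17. With the replicate 1 summit inside the tRNA gene there were 59 peaks, 9.44% of all and 12.1% of dispersed genes, and 7.14%, 14.0%, 12.7%, 3.03% and 6.90% in the 5 classes.

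Leaving out a replicate, which takes every peak of the other list, gave 377 to 411 peaks, 60.3% to 66.6% of all genes and 77.1% to 83.8% of dispersed genes. The classes then had 54.8% to 71.4%, 80.3% to 88.2%, 78.9% to 85.9%, 81.8% in both and 51.7% to 65.5%. Of 60 further values for single amino acids over all their genes, 17 moved outside their interval, among them asparagine from 62.5% to 18.8% and cysteine from 53.3% to 20.0% at −log10 q 5 or more. Array genes were at 0% in all 11 alternatives except replicate 1 alone, where 2 of 107 genes had a summit (1.87%). Several of these could only give 0, since they kept a part of the shared summits or array genes, or changed dispersed genes alone. Only an overlap of 1 bp, a window of 500 bp, an array gap of 10 kb and each replicate alone could have added a summit. The alternatives with the nearest replicate 2 summit, with single genes only and with added genes were chosen after seeing the data. No paired analysis was possible because there is 1 group of 2 replicates. Unknown depth limits what the absence of a peak shows.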
